A study of Arabidopsis thaliana with 24 samples.

Results

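The 10 cellulose synthase catalytic subunits of Arabidopsis thaliana, CESA1 to CESA10, were read out of a table of 38194 annotated features. They were found by their gene identifiers, and all 10 had a row. By their known roles 7 were grouped as subunits of primary walls, namely CESA1 (AT4G32410), CESA2 (AT4G39350), CESA3 (AT5G05170), CESA5 (AT5G09870), CESA6 (AT5G64740), CESA9 (AT2G21770) and CESA10 (AT2G25540). The other 3, CESA4 (AT5G44030), CESA7 (AT5G17420) and CESA8 (AT4G18780), were grouped as subunits of secondary walls. The samples were leaves 1 and 2 of Columbia-0 plants grown for 10 d under continuous light, with 18 to 20 detached leaves pooled in each sample. Every sample was surface sterilised and floated for 8 h in a buffer with 5.0% glucose and dimethyl sulfoxide. Stimulus samples also received 20 µM bikinin, an inhibitor of GSK3-like kinases of the brassinosteroid pathway, the synthetic auxin 2,4-Dichlorophenoxyacetic acid at 2.5 µg/mL and the cytokinin kinetin at 0.5 µg/mL, and mock samples did not. Both treatments were then given 1 mM cordycepin, a chain-terminating adenosine analogue that blocks RNA synthesis, and were frozen 0, 15, 60 or 240 min later. The 0 min samples therefore differ in hormone treatment and not in time in cordycepin. Each of the 8 groups held 3 libraries, numbered 2, 3 and 4. Nothing in the labels says whether the numbers are separate cultures, so p-values measure the spread between these samples, which may be technical.

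Cellulose synthases sit in plasma membrane complexes that draw on UDP-glucose and extrude cellulose microfibrils while moving along cortical microtubules. In expanding cells the complex needs CESA1, CESA3 and a member of the CESA6-like group (CESA2, CESA5, CESA6 or CESA9). Where thick secondary walls are laid down, mainly in xylem vessels and fibres, it needs CESA4, CESA7 and CESA8 together, and loss of any of them collapses the xylem. Bikinin, auxin and cytokinin together are used to turn leaf mesophyll cells into vascular cells over days of culture. The question here was how the RNAs of both classes stood after 8 h of such a treatment and in the hours after transcription was blocked.

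Upstream sequence was compared first, because CESA4, CESA7 and CESA8 are switched on together in xylem. The 250 bases before each annotated gene start (RefSeq, TAIR10.1) were searched on both strands for the tracheary element regulating element TERE, bound by VND factors in xylem, and for the secondary wall MYB-responsive element SMRE (ACCNANN with A or T in the fourth place, A or C in the sixth and C or T in the last). They were also searched for the auxin response element AuxRE (TGTCTC or TGTCGG), the brassinosteroid response element BRRE (CGTGTG or CGTGCG) and the G-box (CACGTG), and on the gene strand for TATAAA. Of the 10 windows, the CESA4 window alone held a TERE, which began 20 bases before the gene start. That stretch lies within the annotated gene AT5G44020, which is on the same strand and runs 17 bases past the CESA4 start. The CESA8 window also overlaps an annotated gene, AT4G06845. TERE was present in 0.368% of the 27443 windows of protein-coding nuclear genes, the background used for every motif here. CESA4 also held a SMRE 81 bases before its start, as did CESA1, CESA5 and CESA9 in theirs, against 29.4% of all windows. CESA7 and CESA8 held neither in these windows. Capitals below mark matches, and each sequence is written 5′ to 3′ on the gene strand. The part of CESA4 nearest its start is shown for its TERE, CESA7 and CESA8 are shown as the other secondary wall members, and CESA5 and CESA1 as primary wall members with a SMRE.
CESA4, chr5:17714360-17714389, plus strand, TERE: tacataataaCTTGAAAGCTActctaagtt
CESA7, chr5:5741501-5741750, minus strand, TATAAA: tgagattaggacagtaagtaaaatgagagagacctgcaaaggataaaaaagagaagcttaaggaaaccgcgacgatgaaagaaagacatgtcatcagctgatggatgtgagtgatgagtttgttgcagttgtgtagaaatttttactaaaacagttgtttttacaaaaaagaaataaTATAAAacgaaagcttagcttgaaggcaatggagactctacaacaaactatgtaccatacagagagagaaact
CESA8, chr4:10316887-10317136, minus strand, AuxRE: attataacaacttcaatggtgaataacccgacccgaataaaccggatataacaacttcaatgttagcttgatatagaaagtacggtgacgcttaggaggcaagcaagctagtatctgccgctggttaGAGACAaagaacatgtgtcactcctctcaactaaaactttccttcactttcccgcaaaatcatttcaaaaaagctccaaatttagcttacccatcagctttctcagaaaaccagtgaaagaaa
CESA5, chr5:3072620-3072869, plus strand, TATAAA then SMRE: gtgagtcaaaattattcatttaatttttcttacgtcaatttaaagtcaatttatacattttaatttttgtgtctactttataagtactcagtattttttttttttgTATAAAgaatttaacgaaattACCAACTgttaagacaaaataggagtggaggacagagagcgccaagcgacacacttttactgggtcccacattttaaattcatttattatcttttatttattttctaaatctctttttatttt
CESA1, chr4:15646845-15647094, minus strand, SMRE then AuxRE: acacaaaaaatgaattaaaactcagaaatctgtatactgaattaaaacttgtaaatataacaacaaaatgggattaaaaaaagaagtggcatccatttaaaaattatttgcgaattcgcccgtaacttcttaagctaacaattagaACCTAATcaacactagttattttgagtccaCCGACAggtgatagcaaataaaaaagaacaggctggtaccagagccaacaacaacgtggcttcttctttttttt
AuxRE was found in 14.7% of all windows and TATAAA in 32.9%. CESA10 held a G-box that shared bases with a BRRE, which were found in 6.49% and 6.71% of windows, and CESA2 held none of the motifs searched. A match describes the letters only.

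The coding sequences diverged enough for nearly all 50-base reads to be told apart. Aligned coding identity was lowest between CESA4 and CESA9 at 64.2% and highest between CESA5 and CESA6 at 85.7%. CESA4 and CESA8 were 68.4% identical, and CESA7 and CESA8 67.8%. One 50-base stretch was shared exactly by any pair of members. It was common to CESA5 and CESA6 and began at coding base 1669 of CESA5, and it is shown because reads from it cannot be assigned to either gene.
CESA5 and CESA6: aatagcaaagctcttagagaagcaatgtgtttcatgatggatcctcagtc
The libraries were stranded, but the strand setting used for counting is not given in the sources used here. CESA1, CESA3, CESA4, CESA7, CESA8 and CESA10 each overlap a gene on the opposite strand. For CESA8, with 98 to 393 counts per library, those neighbours, AT4G06845 and AT4G18770, had 0 counts and between 0 and 6 counts. The neighbour of CESA7, AT5G17410, had 279 to 893 counts against 87 to 351 for CESA7, and that of CESA10, AT2G25530, had 157 to 425 against 1 to 15 for CESA10. CESA4 (chr5:17714390-17719723, 11 exons; 96 to 524 counts) overlaps AT5G44040 (76 to 586) by 65 bases and also shares 17 bases with AT5G44020 (295 to 3217) on its own strand. The overlaps of CESA7 and CESA10 span 66 and 89 bases, and how reads within such overlaps were assigned is not known, so the low values of these members carry that uncertainty.

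The deposited counts summed to between 24021278 and 34166478 per library. At 0 min the hormone-responsive genes moved with the labels. GH3.3, an auxin-induced amido synthetase, was higher in stimulus by 9.41 ± 0.24 (log2 ± SE, adjusted p = 1.92e-07, edgeR), the auxin-induced IAA19 by 4.71 ± 0.10 and ARR15, a cytokinin response regulator, by 4.68 ± 0.20. BR6OX2, a brassinosteroid biosynthesis enzyme that the pathway represses, was lower, at -11.38 ± 0.25 (adjusted p = 6.95e-08, edgeR). The time labels were less well borne out. The mean level of 100 transcripts, chosen because they fell most in stimulus replicate 2, stood at -2.96, -2.77, -2.76 and -1.60 (log2 against 0 min) at 240 min in mock replicate 4 and stimulus replicates 2, 4 and 3. It stood at -0.11 in mock replicate 2 and -0.51 in mock replicate 3 at the same label, and mock replicate 3 had reached -1.90 at 60 min. In 8 libraries the mean of 5 evening clock genes exceeded that of 3 morning clock genes by more than 0.5 (log2). They comprised the first 3 times of mock replicate 3, the last 3 times of stimulus replicate 3, and the 240 min library of replicate 4 in both treatments.

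Primary wall members dominated the cellulose synthase RNA of these leaves. Levels are given as CPM per kb, that is read counts scaled to library size and divided by the length of the RefSeq transcript in kilobases, with TMM scaling, so that genes of different length can be set side by side. In mock leaves at 0 min CESA3 was highest at 72.0 ± 3.92 CPM per kb (SD, n = 3). CESA1 followed at 41.9 ± 3.40, CESA6 at 37.3 ± 4.40 and CESA5 at 36.4 ± 3.62. The libraries of CESA1 and CESA6 overlapped, as did those of CESA6 and CESA5, while those of CESA3 and CESA1 did not. CESA2, which can stand in for CESA6, was at 18.8 ± 2.21. The secondary wall members lay lower, with CESA4 at 4.13 ± 0.487, CESA8 at 3.14 ± 0.484 and CESA7 at 2.59 ± 0.676 CPM per kb, and the libraries of CESA8 and CESA7 overlapped. CESA9, known from the seed coat, was at 0.218 ± 0.0241, and CESA10, the closest relative of CESA1 at 83.9% coding identity, was at 0.0920 ± 0.0323. The order of means was the same in stimulus leaves at 0 min. There CESA1, at 48.5 ± 2.18, no longer overlapped CESA6, at 34.8 ± 2.20, while CESA4, at 2.59 ± 0.436, overlapped CESA8, at 2.46 ± 0.276.

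**Figure D1:**
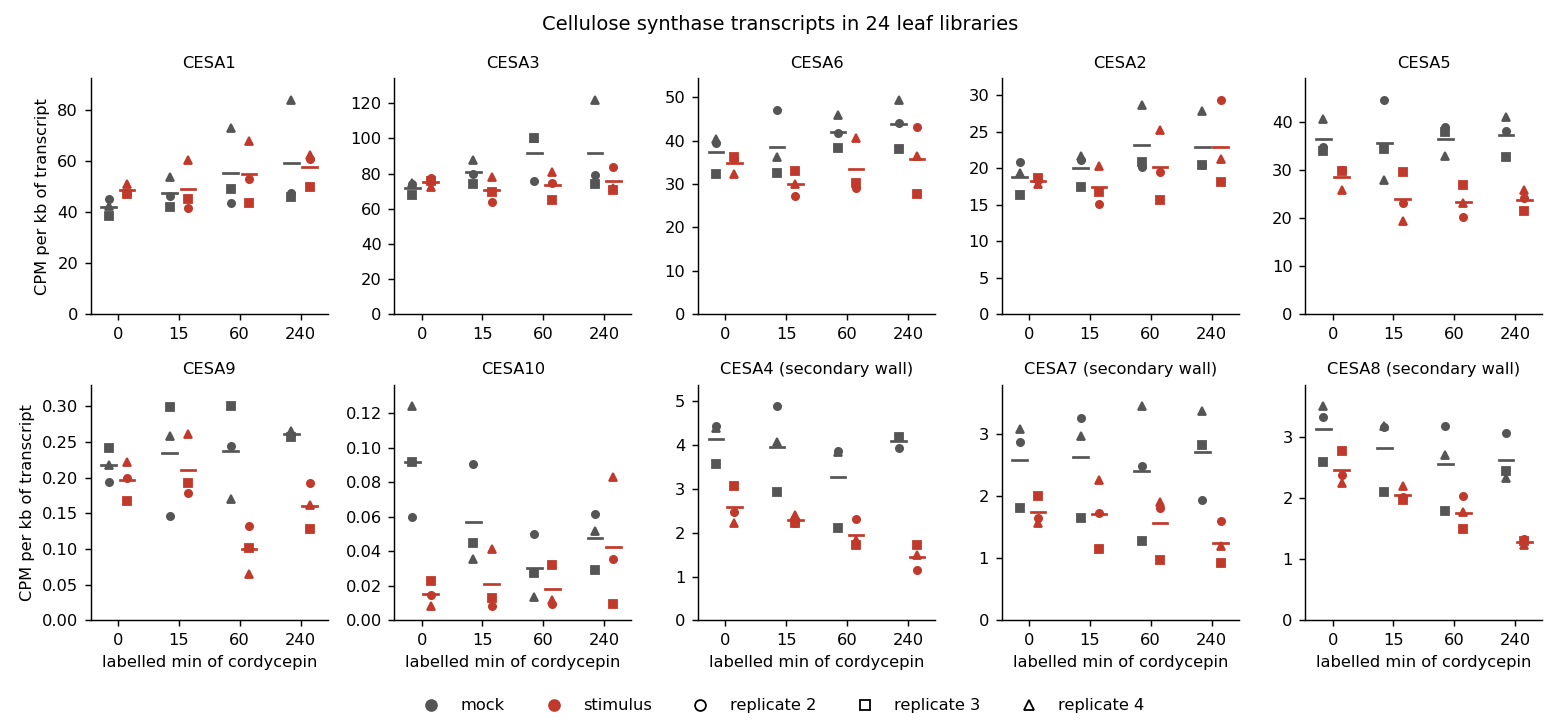
Level of each cellulose synthase gene (CPM per kb) in every library against labelled minutes in cordycepin, mock and stimulus, with the mean of each group. Each gene has a panel with its own linear axis, so heights cannot be compared between panels. By value, primary wall members CESA1, CESA2, CESA3, CESA5 and CESA6 exceed the secondary wall members CESA4, CESA7 and CESA8 in every library, and CESA9 and CESA10 are lowest.

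After 8 h of treatment all 3 secondary wall members and CESA5 were lower in stimulus than in mock leaves, and no member was called higher. A call is an adjusted p below 0.05 over all features tested. At 0 min 56.3% of the 20323 features tested were called, with 29.7% of those tested lower and 26.6% higher, so 4 of the 9 members tested stood against a background in which a call was common. Groups that do not overlap were frequent too. Of 18162 features with a mean of at least 1 CPM, 33.4% were lower in stimulus without overlap and 33.6% higher. CESA4 stood at 4.43, 3.57 and 4.39 CPM per kb in mock replicates 2, 3 and 4, and at 2.48, 3.07 and 2.21 in the stimulus libraries. Every stimulus library was below every mock library, and the difference was -0.70 ± 0.14 (log2 ± SE, adjusted p = 0.00207, edgeR quasi-likelihood test with Benjamini-Hochberg adjustment), or 0.616 of the mock level. CESA7 was at 2.87, 1.81 and 3.07 in mock and at 1.64, 2.00 and 1.57 in stimulus. The groups overlapped through mock replicate 3, and the difference was -0.60 ± 0.20 (adjusted p = 0.0302, edgeR). CESA8 was at 3.32, 2.59 and 3.50 in mock and at 2.37, 2.77 and 2.24 in stimulus. Here too mock replicate 3 lay within the stimulus range, and the difference was -0.38 ± 0.14 (adjusted p = 0.0429, edgeR).

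Among the primary wall members CESA5, known for its part in seed coat mucilage, was the one called. It was at 34.8, 34.0 and 40.6 CPM per kb in mock and at 29.9, 29.7 and 25.8 in stimulus. The groups did not overlap, and the difference was -0.38 ± 0.10 (adjusted p = 0.00813, edgeR). CESA1 was at 45.2, 38.4 and 42.2 in mock and at 47.4, 47.1 and 51.0 in stimulus. All 3 stimulus libraries were above all 3 mock libraries, which held for 33.6% of features with a mean of at least 1 CPM. The difference of 0.19 ± 0.09 was not called (adjusted p = 0.118, edgeR). CESA3 differed by 0.04 ± 0.09, CESA2 by -0.07 ± 0.09, CESA6 by -0.13 ± 0.10 and CESA9 by -0.18 ± 0.25, with adjusted p between 0.321 and 0.743 (edgeR). CESA10 was left out by the filter on low counts. Its counts were 7, 11 and 15 in mock and 2, 3 and 1 in stimulus, which do not overlap, and with no filter it was called lower (adjusted p = 0.00754, edgeR).

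The calls of CESA4 and CESA5 at 0 min held when each library was left out in turn. Those of CESA7 and CESA8 were lost without mock replicate 2 (adjusted p = 0.0941 and 0.110, edgeR), mock replicate 4 (0.109 and 0.146), stimulus replicate 2 (0.0975 and 0.135) or stimulus replicate 4 (0.0969 and 0.138), and that of CESA8 also under DESeq2 (adjusted p = 0.0633). Without mock replicate 3, whose evening clock genes exceeded the morning ones by 1.95 (log2), CESA7 differed by -0.81 and CESA8 by -0.50 (adjusted p = 0.000772 and 0.00523, edgeR). Without stimulus replicate 3 both stayed called (0.0376 and 0.0429). The part of clock state in these differences was not tested. Scaling by total counts in place of TMM moved the median of all features up from -0.02 to 0.23 (log2). CESA4 then stayed lower (-0.44, or -0.68 against that median, adjusted p = 0.0213, edgeR), CESA5, CESA7 and CESA8 were not called (0.303, 0.154 and 0.472), and CESA1 (0.44, adjusted p = 0.0014) and CESA3 (0.29, adjusted p = 0.0169) were called higher. All features were then called higher in 8339 cases and lower in 4120, against 5407 and 6040 with TMM.

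**Figure D2:**
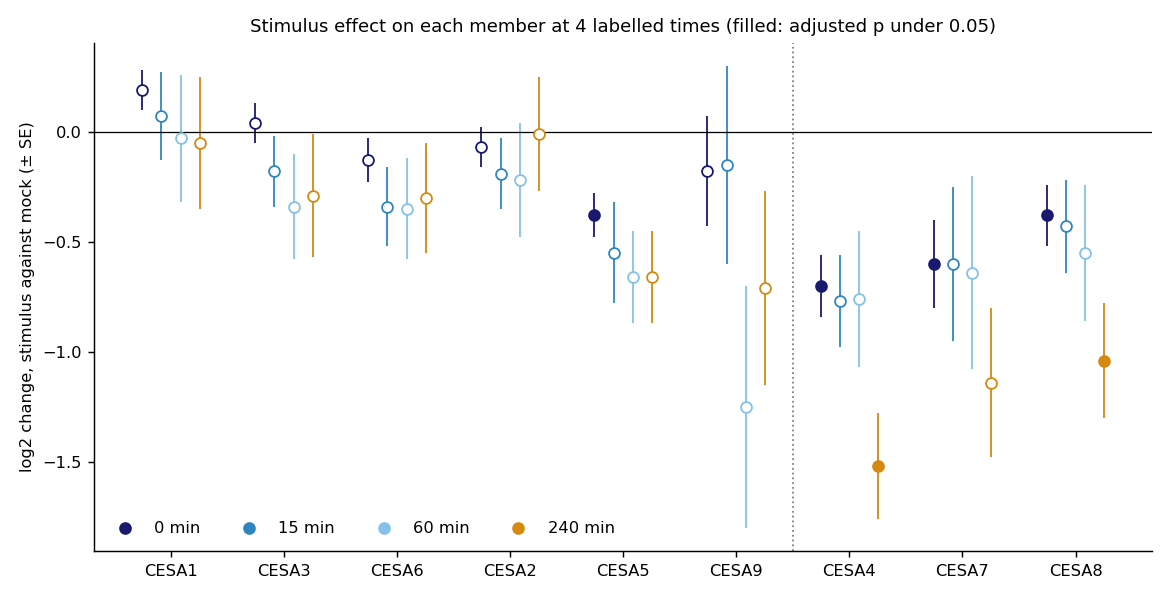
Difference between stimulus and mock (log2, points, with bars of 1 SE) for each cellulose synthase gene tested at each of the 4 times, from the edgeR fits, with filled points for an adjusted p below 0.05. CESA4, CESA7 and CESA8 lie below 0 at every time, with CESA4 lowest at 240 min (-1.52). Of the primary wall members CESA2, CESA5, CESA6 and CESA9 also lie below 0 at every time (-0.01 to -1.25). CESA1 and CESA3 lie between -0.34 and 0.19.

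Later in cordycepin CESA4 and CESA8 were called lower in stimulus at 240 min, and CESA7 was not called at any of the later times in edgeR (DESeq2 called it at 240 min, adjusted p = 0.0238). No member was called at 15 min, when 15.9% of features were (7.12% higher, 8.81% lower), or at 60 min, when 7.72% were (2.64% higher, 5.08% lower). Of features with a mean of at least 1 CPM, 19.6% were lower in stimulus without overlap at 15 min and 18.6% higher. CESA4 at 15 min was at 4.88, 2.93 and 4.07 CPM per kb in mock and at 2.23, 2.21 and 2.40 in stimulus, which do not overlap. Its difference was -0.77 ± 0.21 (adjusted p = 0.0506, edgeR). With the replicate number as a block it was -0.74 and was called (adjusted p = 0.0348, edgeR), though whether the numbers pair the libraries is not settled. At 60 min CESA4 was at 3.87, 2.11 and 3.83 in mock and at 2.32, 1.72 and 1.83 in stimulus. Mock replicate 3 lay within the stimulus range, and the difference of -0.76 was not called (adjusted p = 0.211, edgeR).

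At 240 min 2 of the members were called lower, against 7.39% of features (3.89% were higher, 11.3% either). Of features with a mean of at least 1 CPM, 17.7% were lower in stimulus without overlap and 17.5% higher. CESA4 was at 3.92, 4.18 and 4.19 CPM per kb in mock and at 1.14, 1.71 and 1.48 in stimulus. The groups did not overlap, and the difference was -1.52 ± 0.24 (adjusted p = 0.0119, edgeR), or 0.350 of the mock level. CESA8 was at 3.07, 2.45 and 2.33 in mock and at 1.33, 1.29 and 1.24 in stimulus. Its difference was -1.04 ± 0.26 (adjusted p = 0.0445, edgeR). CESA7 was at 1.93, 2.81 and 3.37 in mock and at 1.59, 0.917 and 1.20 in stimulus, which do not overlap, but the difference of -1.14 ± 0.34 was not called (adjusted p = 0.0722, edgeR). CESA5 differed by -0.66 ± 0.21 (adjusted p = 0.0897, edgeR) and was called under DESeq2 (adjusted p = 0.0289). Its groups did not overlap, and neither did those of CESA9 (-0.71 ± 0.44, adjusted p = 0.322, edgeR). The 100 falling transcripts stood at -0.11 and -0.51 in mock replicates 2 and 3 at this label, against -1.60 and -2.76 in stimulus replicates 3 and 4. Stimulus replicate 2 is left aside here, because the transcripts were chosen by their fall in it. Treatment and the extent of transcript decline therefore cannot be told apart in the group means. In mock replicate 4, where the 100 transcripts stood at -2.96, CESA4, CESA7 and CESA8 were at 4.19, 3.37 and 2.33 CPM per kb, above every stimulus library at 240 min. These values lean on scaling: the TMM factor of this library was 0.601, against 0.935, 1.16 and 0.933 in stimulus. Chloroplast and mitochondrial features took 46.9% of its counts. Its CESA8 count was 126, against 105, 127 and 98 in stimulus. The part of transcript decline in the difference was not tested. CESA4 lost its call without stimulus replicate 2 or 4 (adjusted p = 0.064 and 0.0814, edgeR), and CESA8 lost it when any single library other than mock replicate 4 was left out (0.102 to 0.186); under total counts neither was called (0.0691 and 0.231).

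Over the 4 times together 6 of the 9 members tested were called lower and none higher, where 51.3% of 22307 features were called, 26.2% lower and 25.1% higher. CESA4 differed by -0.93 ± 0.11 (adjusted p = 1.07e-06, edgeR), CESA7 by -0.74 ± 0.19 (adjusted p = 0.00236) and CESA8 by -0.59 ± 0.11 (adjusted p = 9.25e-05). CESA5 differed by -0.55 ± 0.09 (adjusted p = 3.26e-05, edgeR), CESA9 by -0.56 ± 0.17 (adjusted p = 0.0104) and CESA6 by -0.27 ± 0.09 (adjusted p = 0.0172). The call of CESA6 was lost with no filter on low counts (adjusted p = 0.0531, edgeR) and without replicate 2 (0.212) or 4 (0.0703), and that of CESA9 without replicate 3 (0.277). CESA3 (-0.19), CESA2 (-0.12) and CESA1 (0.05) were not called, with adjusted p of 0.0866, 0.369 and 0.733 (edgeR). Under total counts the median of all features moved from 0.03 to 0.33. Then 9074 features were called higher and 3513 lower, against 5600 and 5846 with TMM. Only CESA4 (-0.62, adjusted p = 0.00109, edgeR) and CESA7 (-0.43, adjusted p = 0.0311) were then called lower, and CESA1, CESA2 and CESA3 were called higher (0.38, 0.19 and 0.13). Within the 16 libraries on the lower side of the clock value CESA4 differed by -1.02 (adjusted p = 2.11e-05, edgeR). Within the other 8 no member was called, and CESA4 differed by -0.75 (adjusted p = 0.0551, edgeR).

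The balance between the classes was described by the summed level of CESA4, CESA7 and CESA8 as a percentage of that of CESA1, CESA3 and CESA6, both per kb, which does not depend on library scaling. At 0 min it was 6.70%, 5.77% and 6.98% in mock replicates 2, 3 and 4, and 4.04%, 4.93% and 3.87% in stimulus. All 3 stimulus libraries were lower. The means were 6.48% ± 0.635 and 4.28% ± 0.569 (SD, n = 3). In stimulus the mean was 4.06% ± 0.451 at 15 min, 3.28% ± 0.555 at 60 min and 2.37% ± 0.248 at 240 min. In mock it was 5.59% ± 1.02, 4.40% ± 1.58 and 5.02% ± 1.07 at those times. Mock replicate 3, in which the 100 falling transcripts stood at -1.90 at 60 min and -0.51 at 240 min, was at 2.75% and 5.98% at those labels. The part of the time labels in these values was not tested. Mock replicate 4 went from 6.98% at 0 min to 3.87% at 240 min. Mock replicate 2, in which the 100 transcripts stood between -0.18 and 0.07 at the 4 labels, went from 6.70% to 5.21%.

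**Figure D3:**
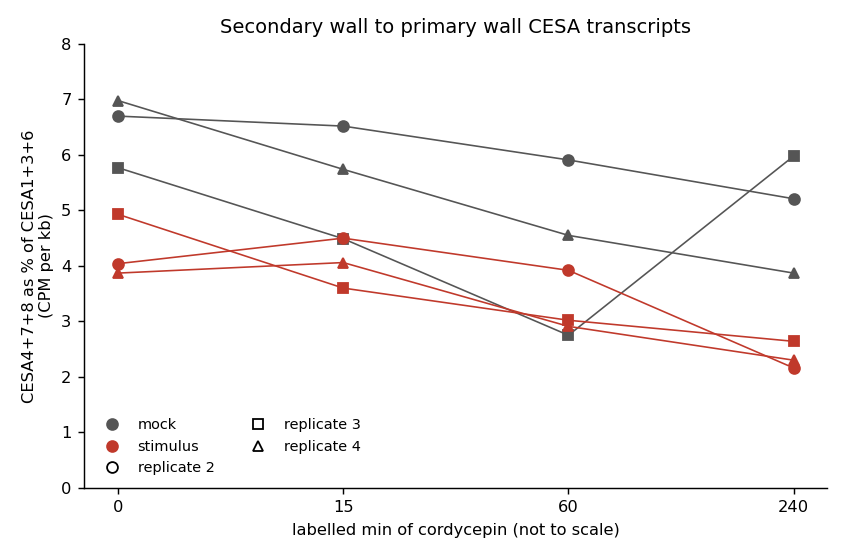
Summed level of CESA4, CESA7 and CESA8 as a percentage of that of CESA1, CESA3 and CESA6 (both CPM per kb) in each library against labelled minutes in cordycepin (axis not to scale), with libraries of one replicate number joined. Stimulus libraries run from 3.87% to 4.93% at 0 min and from 2.16% to 2.64% at 240 min, and mock replicate 3 dips to 2.75% at 60 min.

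Slopes over the time in cordycepin were fitted within each treatment. With TMM scaling they are relative to the bulk of transcripts and are not absolute decay rates. In mock no member had a slope that was called, and neither did any other feature (0%). The smallest adjusted p was 0.961 (edgeR), 278 features had an unadjusted p below 0.05, and DESeq2 also called 0. The mock libraries at 240 min included the 2 with little transcript decline, so the mock slopes and the comparison of slopes between treatments do not rest on a like decline in every replicate. In stimulus CESA4 fell by 0.19 ± 0.04 log2 per h (SE, adjusted p = 0.0311, edgeR) and CESA8 by 0.21 ± 0.04 (adjusted p = 0.0311), while CESA7, at -0.12 ± 0.07, was not called (adjusted p = 0.161). Under total counts CESA7 was called too (-0.19, adjusted p = 0.0479, edgeR). Of all features 21.1% were called, 12.1% with a negative and 9.01% with a positive slope, and none of the primary wall members was. CESA4 stood at 2.48, 3.07 and 2.21 CPM per kb at 0 min in stimulus and at 1.14, 1.71 and 1.48 at 240 min. Both calls were lost without replicate 2 (adjusted p = 0.314 for each, edgeR), where no feature was called, and over 0 to 60 min alone (0.310 and 0.293). Whether the slopes differed between treatments was tested as an interaction, and no member was called, as was no feature (0%): the smallest adjusted p was 0.4 in edgeR, 1626 features had an unadjusted p below 0.05, and DESeq2 called 7. CESA4 differed in slope by -0.20 ± 0.07 (adjusted p = 0.666, edgeR) and CESA8 by -0.16 ± 0.06 (adjusted p = 0.667).

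Genes that work with these subunits were counted by list at 0 min. Of 11 partners of the primary wall complex 7 were called higher and none lower, with a median of 0.36 (log2) against -0.02 over all features tested, of which 26.6% were higher. CC2, a companion protein that keeps complexes on microtubules under stress, differed by 1.16 ± 0.18 (adjusted p = 0.000495, edgeR). SHOU4, which restrains delivery of cellulose synthases to the plasma membrane, differed by 0.52 ± 0.08 (adjusted p = 0.000391), and COB, a GPI-anchored protein needed for oriented cellulose, by 0.48 ± 0.08 (adjusted p = 0.00103). CSI1, the linker of complexes to microtubules, was not called (0.18 ± 0.11, adjusted p = 0.166, edgeR). Of the cellulose synthase-like D genes, glycan synthases related to the CESAs, 3 of 6 passed the filter and all 3 were called higher, CSLD5 by 1.17 ± 0.10, CSLD2 by 0.64 ± 0.09 and CSLD3 by 0.36 ± 0.07 (adjusted p = 1.53e-05, 0.000331 and 0.00173, edgeR).

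Of 15 enzymes and partners of secondary walls 7 were called lower and 2 higher, with a median of -0.54, against 29.7% of all features called lower. LAC4, a laccase of lignin polymerisation, differed by -0.96 ± 0.13 (adjusted p = 0.000226, edgeR). IRX9, a xylan glycosyltransferase, differed by -0.92 ± 0.16 (adjusted p = 0.00106), while PARVUS, which takes part in making the xylan reducing end, differed by 0.86 ± 0.16 (adjusted p = 0.00136). Under total counts 3 were called lower and 3 higher. The transcriptional regulators of secondary walls moved in both directions. Of the 9 of 12 that passed the filter, 3 were called higher and 4 lower, with TMM and with total counts alike. VND2, a NAC factor of vessel formation, was at 3.92 ± 0.766 CPM in mock and 18.6 ± 4.59 in stimulus (SD, n = 3), a difference of 2.22 ± 0.20 (adjusted p = 3.77e-05, edgeR). VND6, its relative of metaxylem, differed by -1.49 ± 0.22 (adjusted p = 0.000361) and VND5 by -1.78 ± 0.29 (adjusted p = 0.000686, edgeR).

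**Figure D4:**
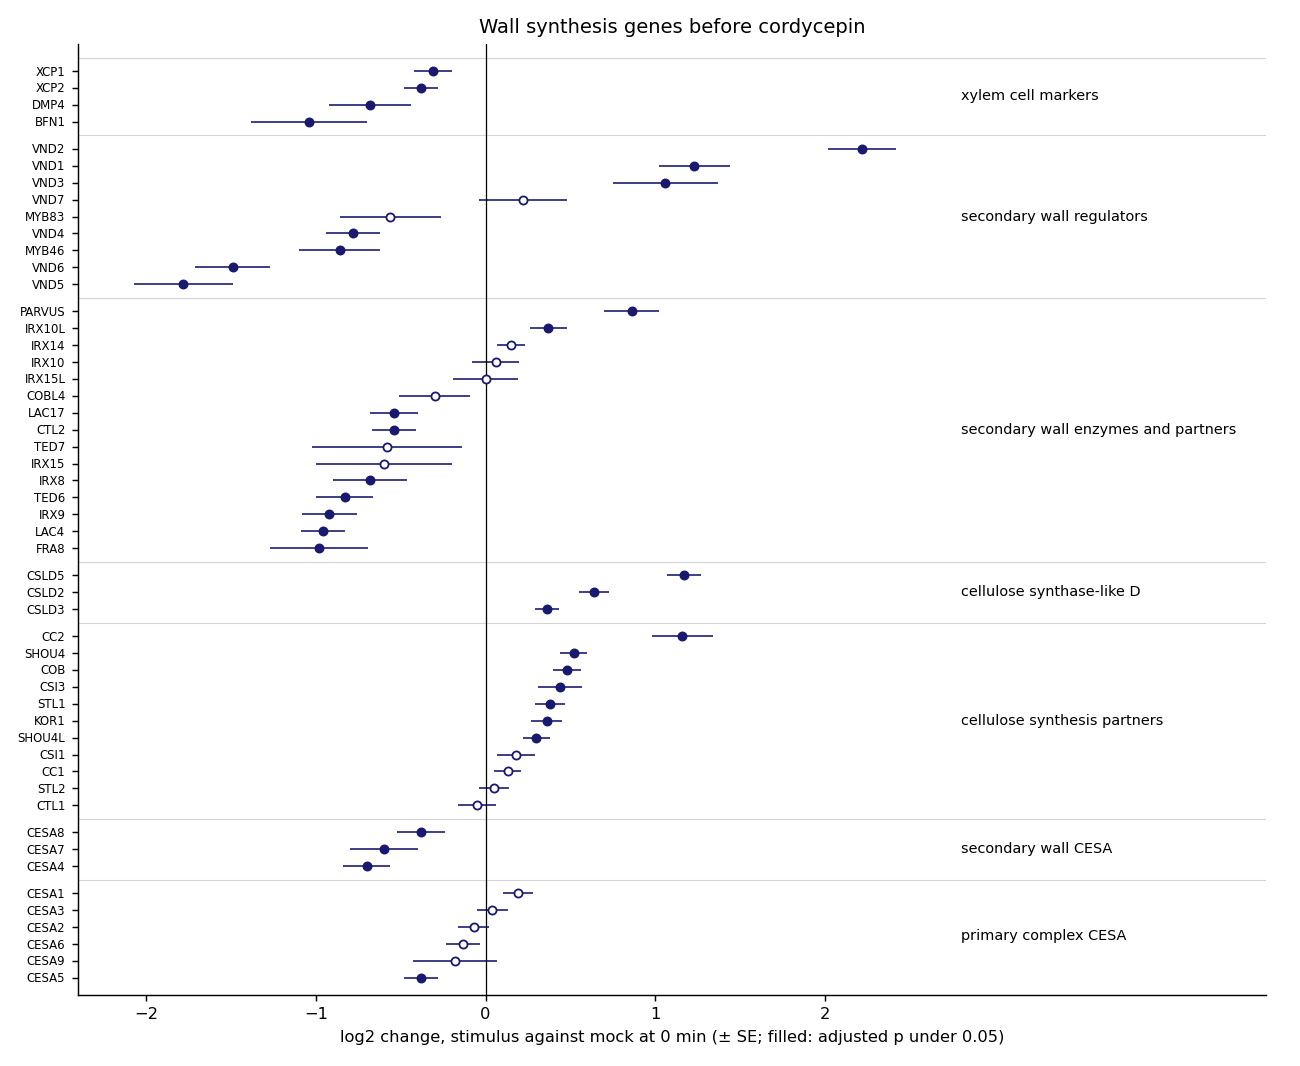
Difference between stimulus and mock at 0 min (log2, points, with bars of 1 SE, filled where the adjusted p was below 0.05) for each gene tested of the cellulose synthase classes, the other wall gene lists and the xylem markers. The partners of the primary wall complex lie mostly above 0 (median 0.36), the secondary wall enzymes mostly below (median -0.54), and the regulators spread from -1.78 to 2.22.

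Markers of cell types moved with the treatment too, against the 29.7% of all features called lower and 26.6% called higher. All 4 xylem markers were called lower at 0 min, the vessel proteases XCP2 (-0.38 ± 0.10, adjusted p = 0.00768, edgeR) and XCP1 (-0.31 ± 0.11, adjusted p = 0.039), the nuclease BFN1 (-1.04 ± 0.34, adjusted p = 0.0279) and DMP4 (-0.68 ± 0.24, adjusted p = 0.0399). Their summed level ran from 41.9 to 50.2 CPM in mock and from 33.0 to 37.2 in stimulus, and none was at 0. Under total counts 0 of the 4 were called, and leaving out 1 library left 1 to 3 called. Of 4 mesophyll markers 3 were called lower, CA1 by -2.19 ± 0.10, RCA by -1.32 ± 0.22 and RBCS1A by -0.66 ± 0.20, while CAB1 was not (-0.59 ± 0.32). The sum of the 4 ran from 8370 to 16100 CPM in mock and from 7090 to 8410 in stimulus, which overlap. Of 4 epidermis and guard cell markers 3 were called lower, ATML1 by -0.57 ± 0.07, MYB60 by -1.08 ± 0.14 and KAT1 by -1.07 ± 0.14, and PDF1 was not (-0.43 ± 0.24). Their sum ran from 90.9 to 96.0 CPM in mock and from 59.3 to 61.8 in stimulus. Of 3 phloem markers 2 were called higher, SUC2 by 1.06 ± 0.15 and SEOR1 by 0.70 ± 0.16, and APL was not (0.08 ± 0.13; sum 50.8 to 75.2 CPM in mock, 112 to 129 in stimulus). The root marker PYK10 was called lower (-2.62 ± 0.67, adjusted p = 0.0156, edgeR), and the seed markers CRA1 and SESA1 did not pass the filter. Of the evening clock genes PRR5 (-0.87 ± 0.23) and LUX (-0.48 ± 0.17) were called lower, TOC1 was not (-0.50 ± 0.24), and none of the morning genes CCA1 (0.14 ± 0.52), LHY (0.25 ± 0.36) and PRR9 (0.42 ± 0.82) was called. These are whole leaves, so fewer xylem cells and less RNA per xylem cell cannot be told apart. The part of cell makeup in the lower CESA4, CESA7 and CESA8 was not tested.

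Across the 24 libraries the secondary wall members followed one another closely, while the primary wall members did not all do so. These correlations of log2 CPM are a description, since the points share treatments, times, library scaling and clock state. CESA4 followed CESA8 (Pearson r = 0.92) and CESA7 (0.82), and CESA7 followed CESA8 (0.79). CESA2 followed CESA1 (0.82), CESA3 (0.79) and CESA6 (0.76). CESA6 ran at 0.62 with CESA7, 0.46 with CESA4 and 0.41 with CESA8. CESA5 ran at 0.72 with CESA4, 0.62 with CESA8, 0.48 with CESA7, 0.69 with CESA6 and -0.20 with CESA1. CESA1 also ran at -0.16 with CESA9 and -0.20 with CESA10. Pairs of primary wall members spanned -0.20 to 0.82, much like pairs across the classes, which spanned -0.26 (CESA1 and CESA8) to 0.72.

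**Figure D5:**
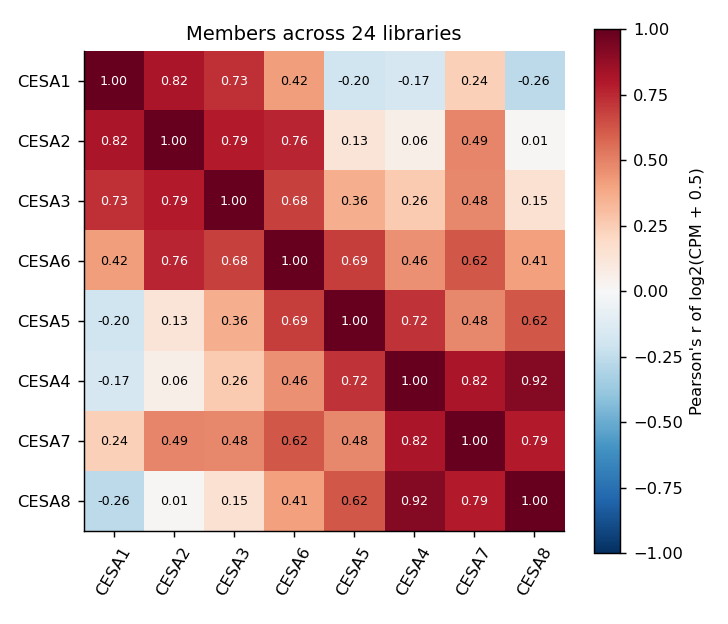
Pearson correlation of log2 CPM over the 24 libraries for each pair of CESA1 to CESA8. The block of CESA4, CESA7 and CESA8 runs from 0.79 to 0.92, and CESA5 correlates more with CESA4 (0.72) than with CESA1 (-0.20).

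Of 18248 nuclear features with a mean of at least 1 CPM, those most like the mean profile of CESA1, CESA3 and CESA6 over the 24 libraries were ACO1 (r = 0.925), AT2G19940 (0.924), CESA2 (0.921), AT5G45480 (0.921) and VAB2 (0.917). Those most like the mean profile of CESA4, CESA7 and CESA8 were ASPG1 (r = 0.920), AT1G80130 (0.913), AT1G66900 (0.909), PHT4;5 (0.906) and KUP11 (0.905). CESA5 ranked 2001 in likeness to the secondary wall profile (r = 0.642) and 5609 in likeness to the primary wall profile (r = 0.299). CESA6 ranked 3403 in likeness to the secondary wall profile (r = 0.531), and CESA7 3250 in likeness to the primary one (r = 0.509).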

How the data were processed

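Per the labels' protocols, stranded total RNA libraries depleted of ribosomal RNA were sequenced as 50-base single reads. The authors deposited whole read counts per annotated feature for 24 libraries, 3 in each of 8 groups. Per the submitters' processing notes, TopHat2, Bowtie2 and TAIR10 were used, and the counting tool and annotation are not given in the sources used here. Of 38194 features 37751 matched RefSeq TAIR10.1, which gave names, transcript lengths and sequences.

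Counts were tested with edgeR 4.0.16 in R 4.3.3 (TMM, filterByExpr, robust quasi-likelihood), on the libraries of each comparison and with p-values adjusted over all features. Treatments were compared at each time and over all times with time as a factor, and slopes used minutes. Coding sequences were aligned with mafft 7.526. DESeq2 1.42.0, total counts, no low-count filter, a replicate block and leaving out libraries were alternatives, and clock subsets were added after seeing the data. The fits were also run on simulated counts with the same spread setting for all features and no clock or decline differences. That run does not show how the fits behave on these libraries. All members are named, with counts of each other list and its 3 members of smallest p at 0 min, or all members of lists of up to 4. A few more list members were named after their values were seen. Members and lists were chosen with earlier results of these data known.

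Same-numbered mock and stimulus libraries deviated together at 15 min (r = 0.25, 0.37 and 0.69). Differently numbered libraries were not compared in this way, so these values cannot settle whether the numbers pair the libraries. For replicates 2, 3 and 4, r was -0.01, 0.09 and -0.10 at 0 min. It was -0.02, -0.20 and 0.75 at 60 min, and -0.08, 0.61 and 0.53 at 240 min. Some pairs therefore deviated together at 60 and 240 min as well. No pair of replicates agreed within sampling noise (chi-square per degree of freedom 6.25 to 209). Features of the chloroplast and mitochondrion took 30.7% to 46.9% of counts and stayed in the library totals.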

Additional observations from a re-analysis of the deposited data

How the results depend on the processing

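The number of members called at 0 min was 2 to 5 when 1 library was left out, against 4. At 15 min it was 1 under DESeq2 and 1 with the replicate block, against 0, and 0 to 1 with 1 library left out, and at 60 min 1 under DESeq2 against 0. At 240 min it was 4 under DESeq2, 0 under total counts and 1 with no filter, against 2, and 0 to 3 with 1 library left out. Over all times it was 0 within the 8 libraries on the evening side of the clock value, against 6, and 5 with any 1 replicate left out. In the stimulus time course it was 3 under total counts, 0 over 0 to 60 min, 0 within libraries below the clock value and 0 to 2 with 1 replicate left out, against 2.

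The direction reversed for CESA2 (0.184), CESA6 (0.126) and CESA9 (0.066) under total counts at 0 min, for CESA2 without mock replicate 2 (0.007; -0.162 to 0.007 with 1 library left out) and for CESA3 without mock replicate 3 (-0.013; -0.013 to 0.072). Over all times it reversed for CESA2 (0.192), CESA3 (0.134) and CESA6 (0.026) under total counts and for CESA1 within the 8 evening libraries (-0.235). Uncalled differences of primary wall members turned from negative to positive under total counts for CESA2 (0.13), CESA3 (0.15) and CESA9 (0.17) at 15 min, CESA1 (0.39), CESA2 (0.18), CESA3 (0.07) and CESA6 (0.04) at 60 min, and CESA1 (0.29), CESA2 (0.27) and CESA3 (0.03) at 240 min, and the stimulus slopes of CESA3 (-0.05) and CESA6 (-0.03) turned negative. Uncalled slopes in mock reversed for CESA4 (-0.039 under total counts, -0.029 to 0.047 with 1 replicate left out, lowest without replicate 3, -0.329 over 0 to 60 min, -0.028 below the clock value), CESA5 (-0.044 under total counts, -0.014 without replicate 4, -0.014 below the clock value) and CESA7 (-0.044, -0.052 to 0.097, -0.109 and -0.092, in the order given for CESA4). Those of CESA5 in stimulus without replicate 3 (0.005; -0.074 to 0.005) and of CESA7 in the interaction below the clock value (0.045) reversed too. The cause of these changes was not tested.

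With the replicate block at 0 min, where same-numbered libraries did not deviate together (r = -0.10 to 0.09), CESA7 and CESA8 had adjusted p of 0.0602 and 0.0738 (edgeR). The secondary to primary difference at 0 min was -0.60 (log2) and ran from -0.71 to -0.53 over its alternatives. Over the alternatives all features called ran from 883 to 5475 at 15 min (3290), from 172 to 2873 at 60 min (1584), from 242 to 7876 at 240 min (2294) and from 0 to 7358 for the stimulus slope (4463), were 6339 within the evening libraries over all times (11446) and 7 under DESeq2 for the interaction (0). For times after 0 min and slopes, leaving out libraries is described for CESA4, CESA5, CESA7 and CESA8. A decay factor from reference transcripts was not run, because no list of them was at hand. Low counts limit CESA9 and CESA10.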
